A study of Mus musculus with 8 samples.

Results

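Genes of transforming growth factor beta (TGF-beta) and bone morphogenetic protein (BMP) signalling, together with transcription factors of mesenchymal cells, were followed in cultured kidney tubular epithelial cells with and without Aldh2, the mitochondrial aldehyde dehydrogenase. The 51 members were chosen by gene symbol, and 50 of them were found among the 14145 genes of the table. Bambi, a pseudoreceptor of the pathway, was not analysed here. The KO group was 4 libraries of untreated primary tubular epithelial cells from Aldh2TEC-KO mice, named for a knockout in tubular epithelial cells (TEC), and the WT group was 4 libraries of the same cells from Aldh2Ctrl mice. Both were grown in DMEM/F12 with 10% fetal bovine serum. The labels give no strain, age or sex, no driver of the deletion, and no word on whether each library came from its own animal, so a p-value reflects library-to-library spread, some of which may be technical. The genotype field of the KO samples names a different ALDH gene in each, so the sample titles were used for grouping.

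TGF-beta, activin and BMP ligands are secreted proteins that bind pairs of type I and type II serine/threonine kinase receptors. TGF-beta and activin receptors act through SMAD2 and SMAD3, BMP receptors through SMAD1, SMAD5 and SMAD9, and both branches share SMAD4. Inhibitory SMADs, SMURF ubiquitin ligases and the corepressors SKI and SKIL restrain the pathway, and ID proteins are classic products of its BMP branch. In kidney the TGF-beta branch is known for its part in fibrosis, and BMP7 is a product of the tubule and collecting duct that opposes it.

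Values are FPKM, read numbers scaled to gene length and library size, so levels can be compared between genes. Aldh2 checked the labels, at 0.88, 1.64, 1.20 and 1.26 FPKM in KO 1 to 4, against 31.1, 23.7, 25.5 and 25.2 FPKM in WT 1 to 4 (log2 fold change -3.61, SE 0.17, limma adjusted p = 3.43e-05). Depth recovered from the values was 17890000 to 18750000 reads or fragments in KO and 17040000 to 17760000 in WT. By their sex-linked transcripts KO 1 and KO 2 were female, and KO 3, KO 4 and all 4 WT libraries were male. A trend on gene length set KO 1, KO 3 and KO 4 apart: among the 2826 longest genes the median log2 difference from the WT mean was -0.30, 0.00, -0.65 and -0.48 in KO 1 to 4, and between -0.08 and 0.06 in the WT libraries. Of 16 tubular epithelial markers 13 were measured, and their summed level was 908 to 6670 FPKM in KO and 1510 to 3270 FPKM in WT. The tubular cadherin Cdh16 was at 57.8 FPKM or more in all 8 libraries. Of the proximal tubule markers listed, Cubn, Slc34a1 and Slc5a2 were not among the measured genes, while Lrp2, Aqp1, Ggt1 and Anpep were.

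None of the 50 members differed between KO and WT at a limma adjusted p below 0.05 (0 members), against 11 of 14145 genes (0.0778%), a count that was 1139 without KO 2 and 1 to 8 without any other single library. The adjusted p-values of the members ran from 0.0996 to 0.972. At an unadjusted p below 0.05 there were 16 members, 14 lower and 2 higher in KO, which is 32.0% against 19.2% of all genes (28.0% lower against 11.6%, and 4.00% higher against 7.58%). limma-voom on recovered reads also called 0 members, with 16 at an unadjusted p below 0.05, against 7 and 2752 of 14134 genes. In the authors' deposited table no member had an adjusted p below 0.05 (0 members), against 53 of 14145 genes. There 4 members had an unadjusted p below that value, a count that was not made over all genes. The authors marked 2 members up and 1 down, against 331 genes up and 477 down among the 14145.

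The 4 KO and 4 WT libraries did not overlap for 10 members, 20.0% of the 50 against 11.6% of all genes. Of these, 8 were lower in KO (16.0%, against 6.86% of all genes) and 2 were higher (4.00%, against 4.76% of all genes). The 8 lower members were Ltbp1, Acvr1b, Acvr2a, Smad1, Smad2, Smad4, Smurf2 and Skil, and the 2 higher members were Id1 and Id3. In all, 31 members had a lower and 19 a higher KO mean on the log2 scale (38.0% higher, against 44.5% of all genes, where 55.5% were lower), with a median log2 fold change of -0.19 against -0.06 over all genes. With median-ratio scaling of the libraries 29 were lower and 21 higher, Nog and Ski having crossed zero. Without KO 3 and KO 4, a comparison added after seeing the data, 26 were lower and 24 higher, 15 had an unadjusted p below 0.05 (30.0%, against 16.2% of all genes) and none passed the adjusted threshold (0 members, against 0.099% of all genes).

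**Figure D1:**
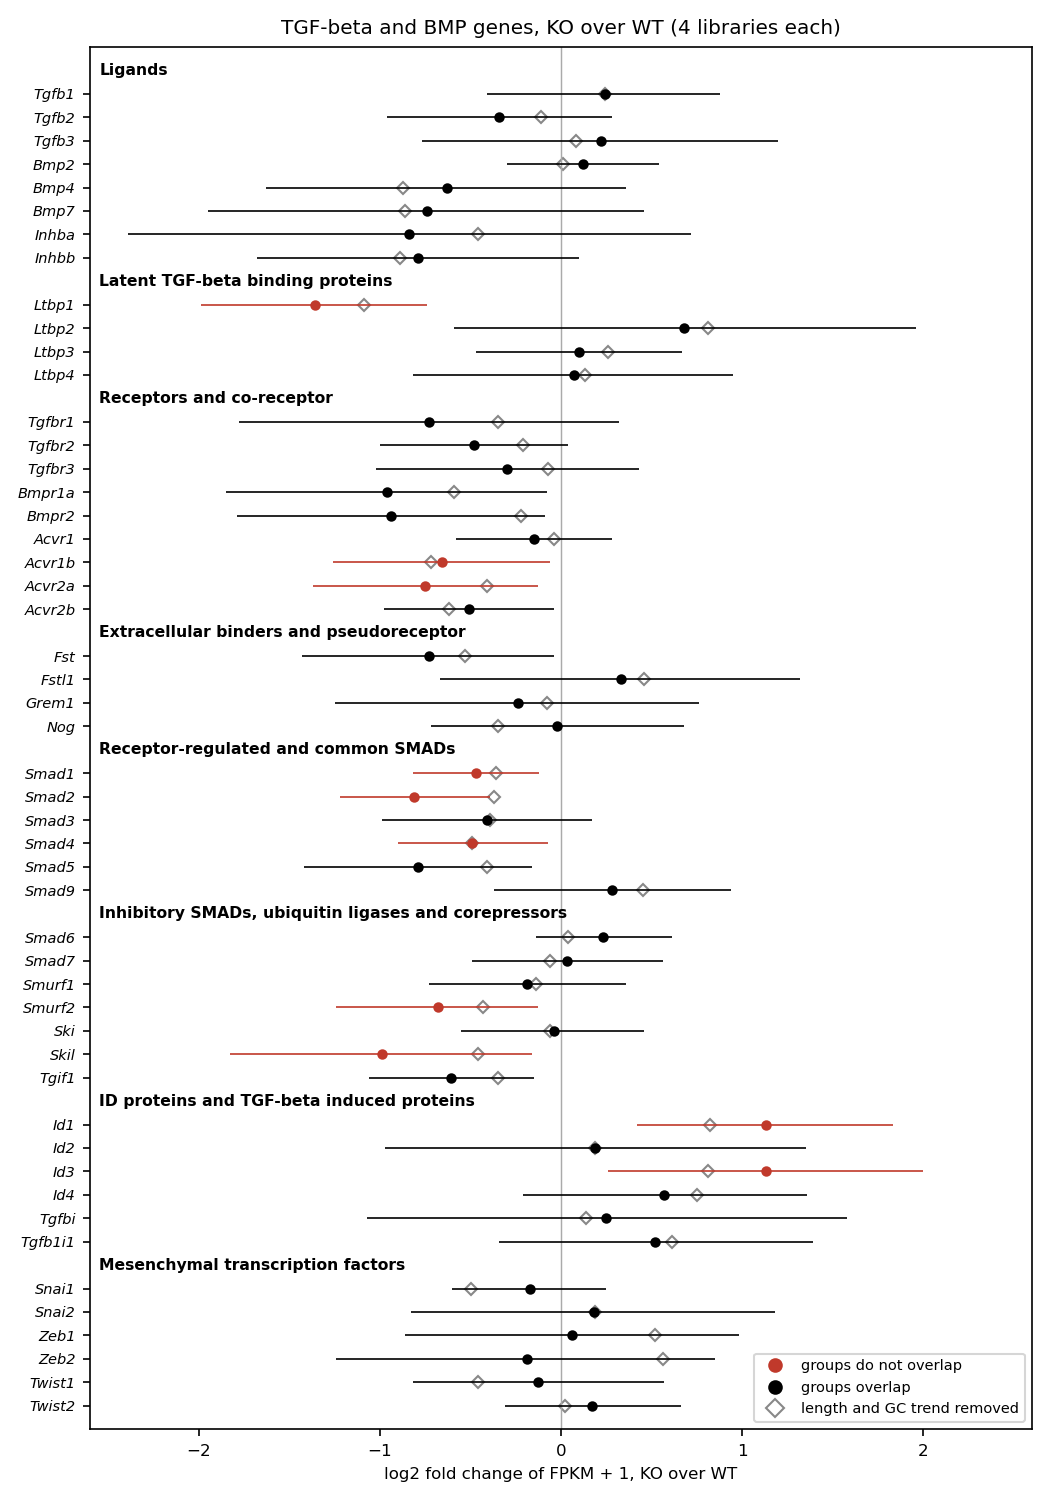
Log2 fold change of FPKM + 1 (x axis, KO over WT) of the 50 measured members, by role. Points with bars are the limma estimate and its 95% interval, red where the 4 KO and 4 WT libraries do not overlap, and open diamonds are estimates corrected for gene length and GC content. All 9 receptors lie left of zero, and Id1 and Id3, both at 1.13, lie farthest to the right.

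The ligands held no member past the threshold, and KO and WT libraries overlapped for all 8. On the log2 scale 5 had a lower and 3 a higher KO mean. Inhbb, a subunit of activin B, had the lowest p of the 8 ligands, at 4.53, 3.15, 10.8 and 9.05 FPKM in KO 1 to 4, against 11.8, 16.0, 15.6 and 5.75 FPKM in WT 1 to 4 (log2 fold change -0.79, SE 0.40, limma adjusted p = 0.301). The lowest 2 values belonged to KO 1 and KO 2, while KO 3 and KO 4 lay between WT 4 and the other WT libraries. Bmp7 was at 2.97, 4.70, 25.8 and 11.8 FPKM in KO 1 to 4, against 9.05, 18.0, 20.0 and 14.3 FPKM in WT 1 to 4 (log2 fold change -0.74, SE 0.54, limma adjusted p = 0.445). KO 3 held the highest and KO 1 the lowest Bmp7 level of the 8 libraries, so the spread within KO exceeded the difference between the groups.

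Bmp4, a BMP ligand, was at 4.28, 3.70, 2.87 and 5.42 FPKM in KO 1 to 4, against 16.2, 2.87, 3.76 and 10.2 FPKM in WT 1 to 4 (log2 fold change -0.63, SE 0.44, limma adjusted p = 0.431). All 4 KO libraries lay below WT 1 and WT 4 and around WT 2 and WT 3. Tgfb2 was at 19.0, 15.1, 7.17 and 9.11 FPKM in KO 1 to 4, against 13.2, 17.6, 15.7 and 14.5 FPKM in WT 1 to 4 (log2 fold change -0.34, SE 0.28, limma adjusted p = 0.495), with KO 3 and KO 4 at the low end and KO 1 at the high end. Inhba, which forms activin A, was at 35.6, 9.84, 4.98 and 4.24 FPKM in KO 1 to 4, against 47.3, 15.1, 21.9 and 6.09 FPKM in WT 1 to 4, and its log2 fold change of -0.84 had a 95% interval of -2.39 to 0.72. Library 1 of each group was the highest for Inhba, a gene that thus varied more within the groups than between them.

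Tgfb1, the main TGF-beta isoform of injured tissue, was at 16.4 ± 5.91 FPKM in KO and 13.4 ± 4.10 FPKM in WT (SD, n = 4 each), and its log2 fold change of 0.24 had a 95% interval of -0.41 to 0.88. Tgfb3 was at 13.1 ± 5.05 FPKM in KO and 12.5 ± 8.69 FPKM in WT (SD, n = 4 each) and Bmp2 at 1.03 ± 0.296 FPKM in KO and 0.870 ± 0.306 FPKM in WT (SD, n = 4 each). The intervals of their log2 fold changes ran from -0.77 to 1.20 for Tgfb3 and from -0.30 to 0.54 for Bmp2, a gene so scarce that the log2(FPKM + 1) scale compresses its fold changes.

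Among latent TGF-beta binding proteins, which tether TGF-beta to the matrix in an inactive complex, Ltbp1 had the lowest p of all 50 members. Ltbp1 (GRCm38 chromosome 17, 75005568 to 75392512) was at 4.38, 6.88, 9.38 and 9.41 FPKM in KO 1 to 4, against 22.1, 27.2, 21.4 and 12.8 FPKM in WT 1 to 4. All 4 KO libraries lay below all 4 WT libraries, with KO 4 and WT 4 nearest to each other. The means were 7.51 ± 2.4 FPKM in KO and 20.9 ± 5.94 FPKM in WT (SD, n = 4 each), a KO level of 36.0% of WT (log2 fold change -1.36, SE 0.28, limma adjusted p = 0.0996). Without KO 2, where 1139 of 14145 genes were called, the limma adjusted p of Ltbp1 was 0.0438. Without any other single library it was 0.113 to 0.368. The authors' deposited table gives Ltbp1 a log2 fold change of -1.35 with an adjusted p of 0.14 and a down mark.

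The other 3 family members had higher KO means, none past the threshold. Ltbp2 was at 31.7, 13.2, 23.0 and 17.3 FPKM in KO 1 to 4, against 23.9, 17.0, 18.5 and 2.49 FPKM in WT 1 to 4 (log2 fold change 0.68, SE 0.57, limma adjusted p = 0.502), and its lowest library was WT 4. Ltbp3, the most abundant of the family, was at 43.1, 54.2, 99.8 and 80.1 FPKM in KO 1 to 4, against 65.8, 57.8, 63.0 and 59.2 FPKM in WT 1 to 4 (log2 fold change 0.10, SE 0.25, limma adjusted p = 0.837). The 2 highest Ltbp3 values were those of KO 3 and KO 4 and the 2 lowest those of KO 1 and KO 2, with the WT libraries between them. Ltbp4 was at 2.75 ± 1.99 FPKM in KO and 2.24 ± 0.808 FPKM in WT (SD, n = 4 each; log2 fold change 0.07, SE 0.39, limma adjusted p = 0.934).

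All 9 receptors had lower KO means, with a median log2 fold change of -0.66, and 5 had an unadjusted p below 0.05 (55.6%), none past the adjusted threshold. Over all genes 55.5% had lower KO means and 11.6% were lower at an unadjusted p below 0.05. In a bulk sample, fewer cells of a type and less RNA per cell cannot be told apart. Without KO 3 and KO 4 the receptor median was -0.23 and 8 of 9 were lower, Tgfbr1 then being higher at 0.18. Acvr2a, an activin type II receptor, was at 4.40, 4.52, 1.71 and 2.05 FPKM in KO 1 to 4, against 4.75, 5.90, 4.90 and 7.38 FPKM in WT 1 to 4 (log2 fold change -0.75, SE 0.28, limma adjusted p = 0.209). Acvr1b, the activin type I receptor, was at 3.59, 9.43, 7.19 and 8.44 FPKM in KO 1 to 4, against 10.7, 10.8, 9.69 and 14.7 FPKM in WT 1 to 4 (log2 fold change -0.66, SE 0.27, limma adjusted p = 0.234). Neither gene showed overlap between KO and WT, but the lowest libraries differed, KO 3 and KO 4 for Acvr2a and KO 1 for Acvr1b.

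Bmpr1a and Bmpr2 were low in a pair of KO libraries. Bmpr1a, a BMP type I receptor, was at 20.0, 20.9, 4.78 and 8.73 FPKM in KO 1 to 4, against 26.2, 25.6, 20.1 and 23.4 FPKM in WT 1 to 4 (log2 fold change -0.96, SE 0.39, limma adjusted p = 0.239). Bmpr2, the BMP type II receptor, was at 11.0, 9.62, 2.30 and 4.44 FPKM in KO 1 to 4, against 13.4, 13.6, 9.80 and 12.6 FPKM in WT 1 to 4 (log2 fold change -0.94, SE 0.38, limma adjusted p = 0.234). For both genes KO 3 and KO 4 stood far below the other 6 libraries, and at least 1 of KO 1 and KO 2 reached the level of WT 3. Acvr2b, the second activin type II receptor, was scarce at 0.51, 1.45, 0.60 and 0.65 FPKM in KO 1 to 4, against 1.67, 1.67, 0.97 and 1.85 FPKM in WT 1 to 4 (log2 fold change -0.51, SE 0.21, limma adjusted p = 0.238). Its KO 2 library lay above WT 3.

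TGF-beta receptors showed less separation. Tgfbr1, the type I receptor, was at 10.3, 14.6, 1.80 and 4.12 FPKM in KO 1 to 4, against 10.5, 11.4, 9.05 and 12.3 FPKM in WT 1 to 4 (log2 fold change -0.73, SE 0.47, limma adjusted p = 0.395), with KO 2 the highest and KO 3 the lowest of the 8 libraries. Tgfbr2, the type II receptor and the most abundant receptor here, was at 24.7, 33.4, 51.4 and 38.5 FPKM in KO 1 to 4, against 43.6, 57.4, 58.5 and 43.6 FPKM in WT 1 to 4 (log2 fold change -0.48, SE 0.23, limma adjusted p = 0.29). Its lowest libraries were KO 1 and KO 2, the reverse of the order seen for Tgfbr1. The co-receptor Tgfbr3 (betaglycan) was at 2.82 ± 1.70 FPKM in KO and 3.54 ± 1.40 FPKM in WT (SD, n = 4 each) and Acvr1, a BMP type I receptor, at 15.1 ± 1.64 FPKM in KO and 17.1 ± 4.03 FPKM in WT (SD, n = 4 each), with log2 fold changes of -0.30 and -0.15.

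Secreted binders of the ligands were led by Fst (follistatin), which sequesters activins and was the most abundant of the 50 members. Fst was at 145, 103, 47.1 and 88.0 FPKM in KO 1 to 4, against 125, 156, 151 and 165 FPKM in WT 1 to 4 (log2 fold change -0.73, SE 0.31, limma adjusted p = 0.244). KO 2, KO 3 and KO 4 lay below all WT libraries, and KO 1 lay among them. Fstl1, a follistatin-like glycoprotein, was at 136, 82.9, 42.0 and 60.9 FPKM in KO 1 to 4, against 110.0, 64.4, 57.9 and 27.8 FPKM in WT 1 to 4 (log2 fold change 0.33, SE 0.44, limma adjusted p = 0.684), with library 1 of each group the highest. Grem1 (gremlin), a BMP antagonist, was at 4.65, 1.70, 0.76 and 0.68 FPKM in KO 1 to 4, against 4.62, 1.68, 2.38 and 0.74 FPKM in WT 1 to 4 (log2 fold change -0.24, SE 0.45, limma adjusted p = 0.769), and again KO 1 and WT 1 were the 2 highest libraries. Nog (noggin), another BMP antagonist, was at 3.82 ± 1.84 FPKM in KO and 3.87 ± 1.54 FPKM in WT (SD, n = 4 each), with a log2 fold change of -0.02 that was 0.04 under median-ratio scaling.

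Of the 6 receptor-regulated and common SMADs, 5 had lower KO means and 4 of these had an unadjusted p below 0.05 (66.7%, against 11.6% of all genes that were lower at that p), none past the adjusted threshold. Smad2, the signal carrier of TGF-beta and activin receptors, was at 21.7, 23.7, 15.3 and 17.2 FPKM in KO 1 to 4, against 36.1, 39.2, 33.9 and 28.9 FPKM in WT 1 to 4. The highest KO value, in KO 2, lay below the lowest WT value, in WT 4. Smad2 averaged 19.5 ± 3.88 FPKM in KO and 34.5 ± 4.32 FPKM in WT (SD, n = 4 each), 56.4% of the WT level (log2 fold change -0.81, SE 0.18, limma adjusted p = 0.117). Smad4, the partner shared by both branches, was at 30.2, 39.4, 22.6 and 30.7 FPKM in KO 1 to 4, against 41.1, 44.7, 41.0 and 44.0 FPKM in WT 1 to 4 (log2 fold change -0.49, SE 0.18, limma adjusted p = 0.217). Its WT libraries lay close together and all KO libraries lay below them, KO 3 lowest. Without KO 2, where 1139 of 14145 genes were called, the limma adjusted p was 0.0324 for Smad2. Without any other single library it was 0.113 to 0.419.

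On the BMP side, Smad1 was at 7.56, 9.02, 6.64 and 8.06 FPKM in KO 1 to 4, against 10.0, 11.7, 10.8 and 12.3 FPKM in WT 1 to 4 (log2 fold change -0.47, SE 0.16, limma adjusted p = 0.19). The Smad1 groups were each tight and did not overlap. Smad5 was at 8.74, 17.4, 5.67 and 8.95 FPKM in KO 1 to 4, against 17.6, 17.9, 14.4 and 18.6 FPKM in WT 1 to 4 (log2 fold change -0.79, SE 0.28, limma adjusted p = 0.2), where KO 2 lay among the WT libraries. Without KO 2, where 1139 of 14145 genes were called, the limma adjusted p of Smad5 was 0.0286. Without any other single library it was 0.169 to 0.451. Smad3, the most abundant SMAD, was at 34.7, 60.1, 80.4 and 76.8 FPKM in KO 1 to 4, against 75.7, 81.6, 85.4 and 77.7 FPKM in WT 1 to 4 (log2 fold change -0.41, SE 0.26, limma adjusted p = 0.386). KO 3 and KO 4 matched the WT libraries for Smad3, and the lower KO mean rested on KO 1 and KO 2. Smad9 was the one with a higher mean, at 0.791 ± 0.790 FPKM in KO and 0.382 ± 0.202 FPKM in WT (SD, n = 4 each), and its libraries held between 14 and 180 reads each.

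**Figure D2:**
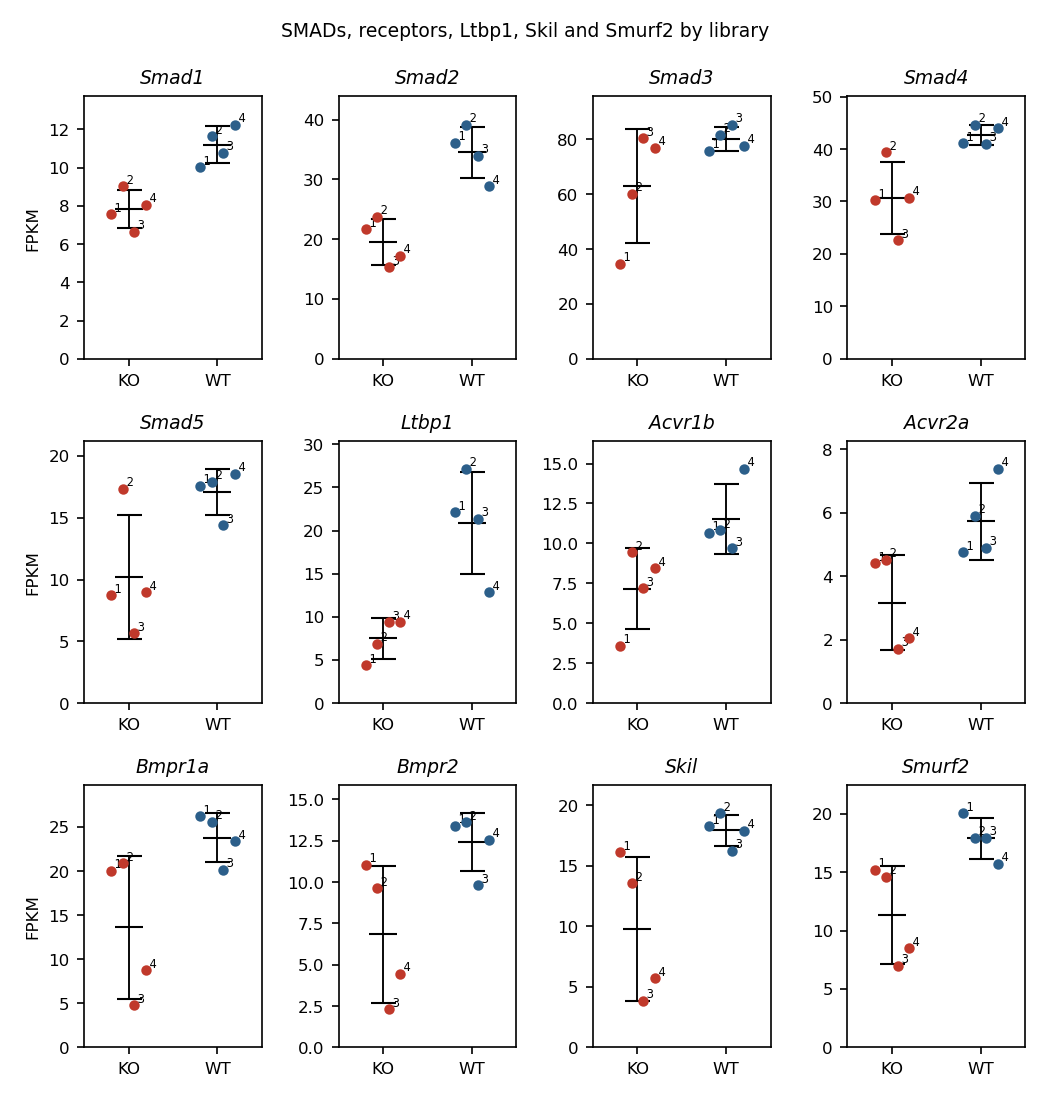
FPKM (y axis, from 0) of 12 members by library, KO left in red and WT right in blue, with the library number at each point and the mean ± SD (n = 4) as a bar. For Smad1, Smad2, Smad4, Ltbp1, Acvr1b, Acvr2a, Skil and Smurf2 every red point lies below every blue one, and for Bmpr1a, Bmpr2, Skil and Smurf2 KO 3 and KO 4 are the lowest libraries.

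Of 7 negative regulators inside the cell, 5 had lower and 2 higher KO means, none past the adjusted threshold. Smurf2, a ubiquitin ligase that marks receptors and SMADs for degradation, was at 15.2, 14.6, 6.97 and 8.48 FPKM in KO 1 to 4, against 20.0, 17.9, 17.9 and 15.7 FPKM in WT 1 to 4 (log2 fold change -0.68, SE 0.25, limma adjusted p = 0.206). Skil (SnoN), a corepressor of SMAD target genes, was at 16.1, 13.5, 3.84 and 5.72 FPKM in KO 1 to 4, against 18.3, 19.3, 16.2 and 17.9 FPKM in WT 1 to 4 (log2 fold change -0.99, SE 0.37, limma adjusted p = 0.214). Neither gene showed overlap between KO and WT, and KO 1 and KO 2 lay just under the WT range while KO 3 and KO 4 lay far below it. Tgif1, a homeobox corepressor, was at 19.5, 18.9, 33.0 and 26.2 FPKM in KO 1 to 4, against 32.9, 38.9, 40.4 and 35.1 FPKM in WT 1 to 4 (log2 fold change -0.61, SE 0.20, limma adjusted p = 0.188), where KO 3 alone reached the lowest WT library.

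The inhibitory SMADs, whose genes are themselves induced by the pathway, showed small differences. Smad6, which restrains the BMP branch, was at 14.7, 11.1, 10.8 and 11.2 FPKM in KO 1 to 4, against 10.4, 10.2, 11.0 and 8.33 FPKM in WT 1 to 4 (log2 fold change 0.23, SE 0.17, limma adjusted p = 0.439). Smad7, which restrains both branches, was at 24.7 ± 3.08 FPKM in KO and 24.8 ± 6.95 FPKM in WT (SD, n = 4 each), with a log2 fold change of 0.03 and a 95% interval of -0.49 to 0.56. Ski and Smurf1, a corepressor and a ubiquitin ligase, averaged 42.0 ± 13.4 FPKM in KO and 41.9 ± 3.98 FPKM in WT (SD, n = 4 each) and 27.2 ± 9.25 FPKM in KO and 30.3 ± 5.32 FPKM in WT (SD, n = 4 each). Their log2 fold changes were -0.04 and -0.19, the value for Ski being 0.03 under median-ratio scaling.

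ID genes encode inhibitors of basic helix-loop-helix transcription factors. All 4 had higher KO means, and so did Tgfbi, a matrix protein named for its induction by TGF-beta, and Tgfb1i1 (Hic-5), a focal adhesion adaptor. Id1 (GRCm38 chromosome 2, 152736251 to 152737410) was at 110.2, 70.7, 48.9 and 53.1 FPKM in KO 1 to 4, against 36.1, 32.9, 39.1 and 17.9 FPKM in WT 1 to 4. KO 1 stood highest, and KO 3, the lowest of the KO group, still lay above all WT libraries. The means were 70.7 ± 27.9 FPKM in KO and 31.5 ± 9.44 FPKM in WT (SD, n = 4 each; log2 fold change 1.13, SE 0.31, limma adjusted p = 0.154). Id3 (GRCm38 chromosome 4, 136143497 to 136145755) was at 112, 80.8, 82.9 and 86.3 FPKM in KO 1 to 4, against 73.2, 42.4, 52.0 and 16.5 FPKM in WT 1 to 4. Its KO libraries all lay above the WT libraries, the nearest pair being KO 2 and WT 1, and the lowest value was that of WT 4. Id3 averaged 90.6 ± 14.6 FPKM in KO and 46.0 ± 23.5 FPKM in WT (SD, n = 4 each; log2 fold change 1.13, SE 0.39, limma adjusted p = 0.195). The authors' deposited table marks both genes up, with log2 fold changes of 1.25 for Id1 and 1.08 for Id3 and adjusted p-values of 0.246 and 0.477.

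Id2 and Id4 followed another pattern. Id2 was at 67.7, 79.2, 17.1 and 26.7 FPKM in KO 1 to 4, against 23.9, 29.0, 27.8 and 75.2 FPKM in WT 1 to 4 (log2 fold change 0.19, SE 0.52, limma adjusted p = 0.846). KO 1, KO 2 and WT 4 were high, and the other 5 libraries were low. Id4 was at 5.02, 2.66, 1.08 and 0.82 FPKM in KO 1 to 4, against 0.90, 0.99, 1.40 and 0.87 FPKM in WT 1 to 4 (log2 fold change 0.57, SE 0.35, limma adjusted p = 0.374), with KO 1 and KO 2 above the other 6 libraries. Tgfb1i1 was at 11.1 ± 3.05 FPKM in KO and 8.21 ± 4.32 FPKM in WT (SD, n = 4 each; log2 fold change 0.52, SE 0.39, limma adjusted p = 0.454), and Tgfbi at 0.33, 10.8, 0.74 and 3.35 FPKM in KO 1 to 4, against 2.20, 2.04, 1.94 and 1.06 FPKM in WT 1 to 4, where KO 2 stood far above the other libraries.

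Among the male libraries alone, KO 3 and KO 4 against the 4 WT libraries, none of the ID genes was called: the log2 fold change was 0.73 for Id1 (limma adjusted p = 0.0908), 1.04 for Id3 (0.154), -0.67 for Id2 (0.277) and -0.06 for Id4 (0.776). Id2 and Id4 were thus lower there and Id1 and Id3 higher. After correction for gene length and GC content all 8 libraries gave 0.82 for Id1 and 0.81 for Id3, with overlap of the groups for both, and the male libraries gave 0.20 for Id1 (limma adjusted p = 0.636) and 0.45 for Id3 (0.555).

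**Figure D3:**
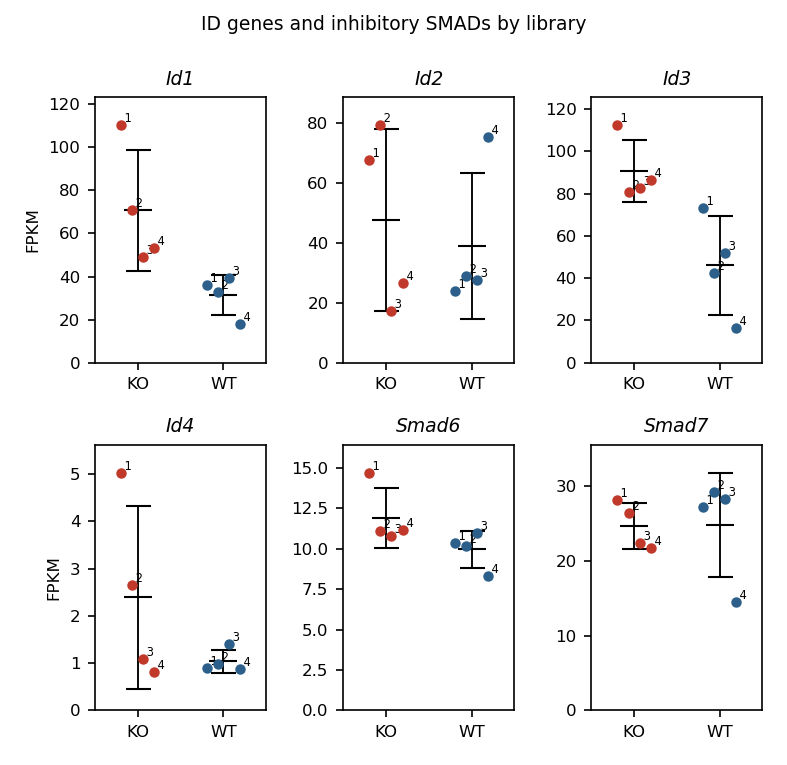
FPKM (y axis, from 0) of the 4 ID genes and the 2 inhibitory SMADs by library, KO left in red and WT right in blue, with library numbers and the mean ± SD (n = 4). Id1 and Id3 lie higher in all 4 KO libraries than in any WT library, Id2 is high in KO 1, KO 2 and WT 4, and Smad7 stands low in WT 4.

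Promoter windows, 250 bases before to 50 after a transcription start, were taken from RefSeq (GRCm38.p6) and held 49 starts of 36 members. They were searched on both strands for GTCT (AGAC on the other strand), the core of the SMAD box, for the palindrome GTCTAGAC, which itself holds GTCT and AGAC, and for GGCGCC, a GC-rich element bound by SMADs of the BMP branch. GTCT was found in 83.7% of member windows, in 85.6% of windows of measured genes and in 88.0% of all 32851 windows. GGCGCC was found in 30.6%, 21.0% and 11.9% of them, and GTCTAGAC in 1 member window (2.04%), in 0.236% and in 0.213%. These shares count windows and not genes. Overlapping windows of the same gene, as for Smad5 and Ltbp4 with GGCGCC, can count the same site more than once. The windows of Id3, higher in all KO libraries, of Ltbp1, the member with the lowest p, which has 2 starts, and of Smad6, which holds the palindrome, are shown 5′ to 3′ on the sense strand, with matches to GTCT or AGAC in capitals.
Id3 (chr4:136143572-136143871, plus strand): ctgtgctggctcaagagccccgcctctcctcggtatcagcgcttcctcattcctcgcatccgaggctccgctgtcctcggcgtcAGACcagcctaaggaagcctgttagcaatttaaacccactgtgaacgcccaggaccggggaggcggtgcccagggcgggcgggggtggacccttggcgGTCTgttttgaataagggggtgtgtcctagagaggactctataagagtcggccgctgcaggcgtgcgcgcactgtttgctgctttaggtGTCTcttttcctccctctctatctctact
Ltbp1 (chr17:75005279-75005578, plus strand): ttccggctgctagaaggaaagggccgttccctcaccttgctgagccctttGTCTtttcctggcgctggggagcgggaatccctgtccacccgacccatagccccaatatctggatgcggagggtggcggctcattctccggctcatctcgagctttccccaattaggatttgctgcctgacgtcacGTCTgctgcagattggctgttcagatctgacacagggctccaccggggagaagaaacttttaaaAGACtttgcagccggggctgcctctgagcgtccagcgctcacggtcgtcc
Ltbp1 (chr17:75178531-75178830, plus strand): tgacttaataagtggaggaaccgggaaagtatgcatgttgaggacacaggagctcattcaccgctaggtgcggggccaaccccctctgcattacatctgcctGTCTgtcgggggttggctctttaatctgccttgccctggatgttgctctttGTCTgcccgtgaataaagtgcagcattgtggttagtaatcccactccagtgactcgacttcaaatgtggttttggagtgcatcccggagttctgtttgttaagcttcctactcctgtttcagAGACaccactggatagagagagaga
Smad6 (chr9:64022010-64022309, minus strand): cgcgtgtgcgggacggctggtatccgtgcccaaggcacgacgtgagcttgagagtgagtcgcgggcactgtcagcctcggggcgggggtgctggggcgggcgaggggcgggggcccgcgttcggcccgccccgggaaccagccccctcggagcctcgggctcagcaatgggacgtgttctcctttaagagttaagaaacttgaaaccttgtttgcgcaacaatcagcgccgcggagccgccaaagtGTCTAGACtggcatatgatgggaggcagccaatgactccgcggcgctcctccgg
Id3 and both Ltbp1 windows each hold 3 matches to the core and none to GGCGCC, although Id3 was higher and Ltbp1 lower in KO. In the Smad6 window the capitals are the palindrome itself. A match is a run of letters and says nothing of binding in these cells.

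Transcription factors of the SNAI, ZEB and TWIST families repress epithelial genes and drive mesenchymal ones. All 6 were scarce, the highest averaging 2.81 FPKM over the 8 libraries (Zeb1), and 3 had a higher and 3 a lower KO mean, with limma adjusted p-values from 0.614 to 0.939. Zeb2 was at 3.25, 5.64, 0.40 and 1.17 FPKM in KO 1 to 4, against 4.22, 1.82, 1.38 and 3.18 FPKM in WT 1 to 4 (log2 fold change -0.19, SE 0.47, limma adjusted p = 0.828). Zeb1 was at 4.94, 4.80, 0.75 and 1.74 FPKM in KO 1 to 4, against 4.03, 2.07, 1.40 and 2.74 FPKM in WT 1 to 4. For both ZEB genes KO 1, KO 2 and WT 1 were the 3 highest libraries and KO 3 was the lowest. Snai2 (Slug) was at 4.17, 1.38, 0.55 and 1.23 FPKM in KO 1 to 4, against 3.84, 1.13, 0.98 and 0.29 FPKM in WT 1 to 4, with library 1 of each group above the other 6. Twist1 ran the other way within KO, at 0.87, 0.41, 2.49 and 1.32 FPKM in KO 1 to 4, against 1.85, 1.59, 1.76 and 0.50 FPKM in WT 1 to 4, with KO 3 the highest library. Snai1 was at 0.522 ± 0.225 FPKM in KO and 0.725 ± 0.340 FPKM in WT (SD, n = 4 each) and Twist2 at 0.579 ± 0.176 FPKM in KO and 0.437 ± 0.420 FPKM in WT (SD, n = 4 each), with as few as 9 reads for Snai1 and 6 reads for Twist2 in a library. For these low genes the log2(FPKM + 1) scale understates a fold change.

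Levels of other cells' markers varied between the same libraries. Fibroblast and pericyte markers (9 of 15 measured, none at 0) summed to 74.0 to 108 FPKM in KO and 57.3 to 536 FPKM in WT, the highest being WT 1. Macrophage and leukocyte markers (14 of 14 measured, none at 0) summed to 242 to 1770 FPKM in KO and 105 to 1070 FPKM in WT, and the low libraries were KO 3, WT 2, WT 3 and WT 4. The fibroblast markers Pdgfra, Dcn and Lum and the endothelial markers Pecam1 and Cdh5 were not among the measured genes. Of the fibroblast markers 7 of 9 had lower KO means (median log2 fold change -1.08), against 55.5% of all genes. Of the macrophage markers 13 of 14 had higher KO means (median 1.66), against 44.5% of all genes. At an unadjusted p below 0.05 were 3 fibroblast markers (33.3%) and 5 macrophage markers (35.7%), against 19.2% of all genes. KO and WT did not overlap for 2 fibroblast markers (22.2%) and 0 macrophage markers, against 11.6% of all genes. None in either list passed the adjusted threshold. Inhba, Grem1, Snai2 and Fstl1 were high in WT 1, where the fibroblast sum was 536 FPKM, and also in KO 1, where it was 102 FPKM. Zeb1 and Zeb2 were among their highest in KO 1, KO 2 and WT 1, with macrophage sums of 589, 1770 and 1070 FPKM, and lower than there in KO 4, with a macrophage sum of 1150 FPKM. In WT 4, with a macrophage sum of 120 FPKM, both genes were higher than in KO 4, Zeb1 at 2.74 FPKM and Zeb2 at 3.18 FPKM. The part of these cells in the results was not tested.

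Library by library, KO 3 and KO 4 were the 2 lowest of the 8 libraries for 11 members, among them 4 of the 9 receptors, and the 2 highest for 1 member, Ltbp3. KO 1 and KO 2 were the 2 lowest for 8 members and the 2 highest for 4. WT 1 was the highest WT library for 23 of the 50 members, and WT 4 was the lowest WT library for 22. These counts were not made over all genes, so they cannot be read as particular to the members. Among the 2826 longest genes KO 3 and KO 4 were also the lowest, with median differences of -0.65 and -0.48. The median log2 difference from the WT mean over the members was -0.14, -0.14, -0.50 and -0.28 in KO 1 to 4, and 0.12, 0.06, 0.03 and -0.09 in WT 1 to 4. The same medians over all genes were -0.06, 0.04, -0.17 and -0.08 in KO 1 to 4.

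**Figure D4:**
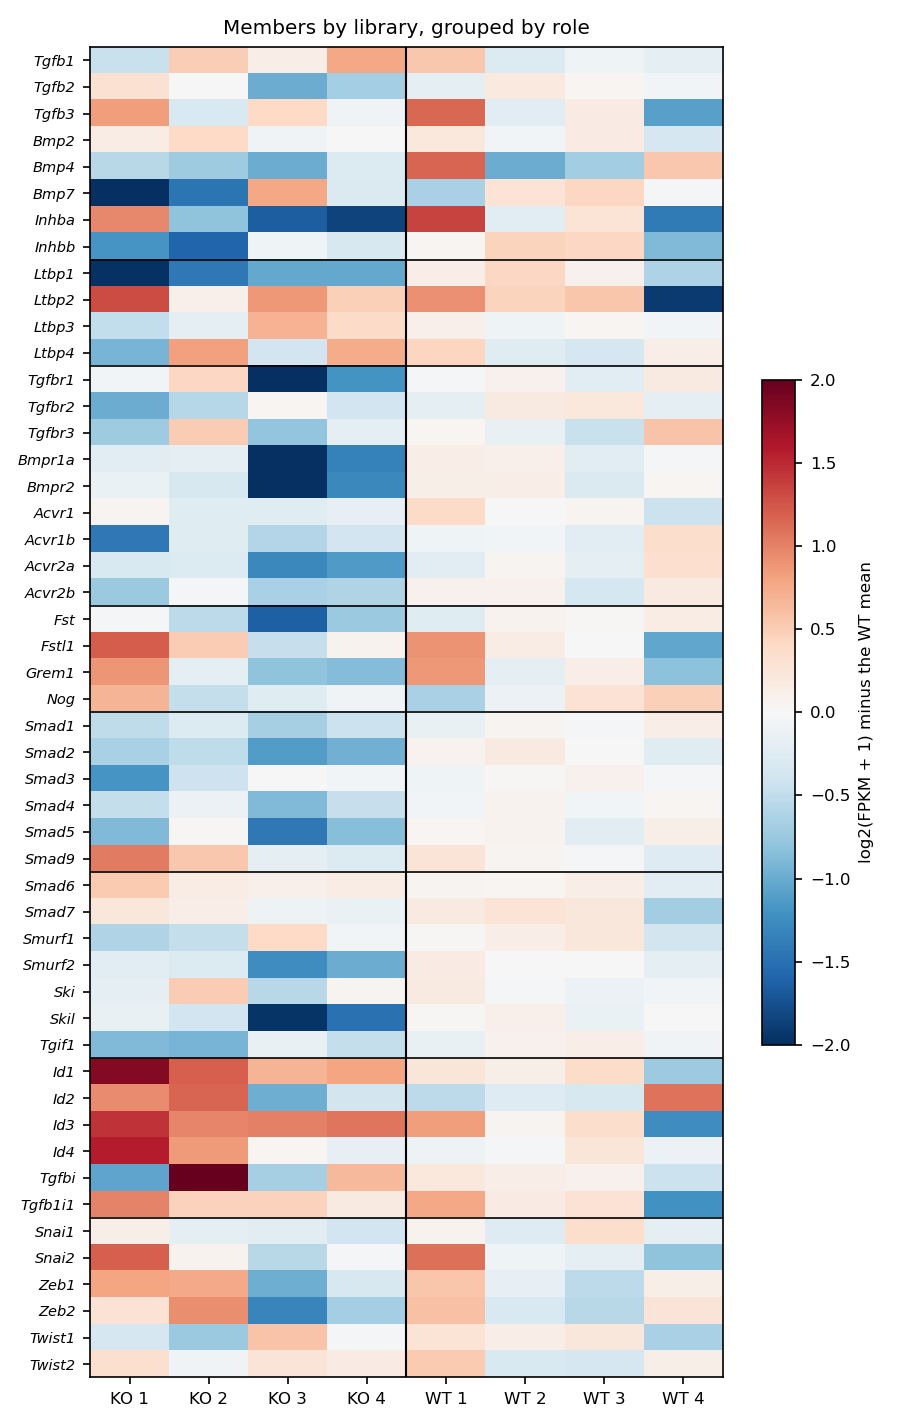
Level of each member in each library as log2(FPKM + 1) minus the mean of the 4 WT libraries (colour, -2 to 2, values beyond shown at the ends), KO libraries left and WT libraries right, with lines between roles. Blue blocks mark receptors such as Bmpr1a, Bmpr2 and Tgfbr1 in KO 3 and KO 4, and the red rows of Id1 and Id3 span all 4 KO libraries.

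Male libraries alone called many more genes, 6275 of 14145 (44.4%), and 15 of the 50 members (30.0%). Of these 14 were lower in KO, which is 28.0% against 26.7% of all genes, and 1 was higher, Ltbp3 (2.00%, against 17.6%). The share of lower members was thus near that of all genes. The 14 were Tgfb2, Ltbp1, Tgfbr1, Bmpr1a, Bmpr2, Acvr2a, Acvr2b, Fst, Smad1, Smad2, Smad4, Smad5, Smurf2 and Skil. Bmpr1a was at -1.72 (limma adjusted p = 0.00335), Skil at -1.73 (0.00324) and Smad2 at -1.03 (0.00349) on the log2 scale. Corrected for length and GC content, the same libraries gave -0.91 for Bmpr1a (limma adjusted p = 0.0142), -0.67 for Skil (0.0112) and -0.23 for Smad2 (0.314). This comparison sets 2 KO libraries against 4 WT libraries and leaves out KO 1 and KO 2, which lay nearer to WT for Bmpr1a and Skil. Sex and the other differences between these KO pairs cannot be told apart. With sex as a covariate over all 8 libraries 14 members were called, 13 lower and 1 higher, against 34.2% of all genes. No WT library was female, so this fit takes its fold changes from the male libraries too, with the same values (Skil -1.73, Smad2 -1.03). KO 1 and KO 2 add only to its estimate of spread.

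Gene length ran with the fold changes of the members. Their median exon-union length was 5205 bases, against 3953.5 bases over all genes. Id1 (1160 bases) and Id3 (1791 bases) were among the shortest and Ltbp1 (10691 bases), Skil (9694 bases) and Bmpr2 (17983 bases) among the longer ones. Among the 25 shorter members 13 had a higher and 12 a lower KO mean (median 0.03), and among the 25 longer ones 6 were higher and 19 lower (median -0.47). Across the 50 members length and log2 fold change had a Spearman rho of -0.45, and across all genes one of -0.39, a description over genes that share the same 8 libraries.

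After each library was corrected for its trend on length and GC content, 19 members were higher and 31 lower, and 14 had an unadjusted p below 0.05 (28.0%, against 20.3% of all genes). The groups did not overlap for 5 members (10.0%, against 12.1% of all genes), Bmpr1a, Acvr1b, Acvr2a, Smad1 and Smad4, all lower in KO (6.5% of all genes were lower without overlap). No member passed the adjusted threshold in this form (0 members, against 0.0142% of all genes). Corrected log2 fold changes were -0.37 for Smad2, -0.22 for Bmpr2, -0.46 for Skil and -1.09 for Ltbp1, against -0.81, -0.94, -0.99 and -1.36 without the correction. Smad4 and Acvr1b kept their size, at -0.49 and -0.72. All 9 receptors remained below zero (median -0.35), and the 6 ID and TGF-beta induced genes remained above it (median 0.68). Zeb2, the longest member, crossed zero to 0.56, and Smad7 to -0.06. Among male libraries so corrected 11 members were called against 22.9% of all genes, and 8 of them were also among the 15 called without the correction: Ltbp3, Tgfbr1, Bmpr1a, Acvr2b, Smad1, Smad4, Smurf2 and Skil.

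**Figure D5:**
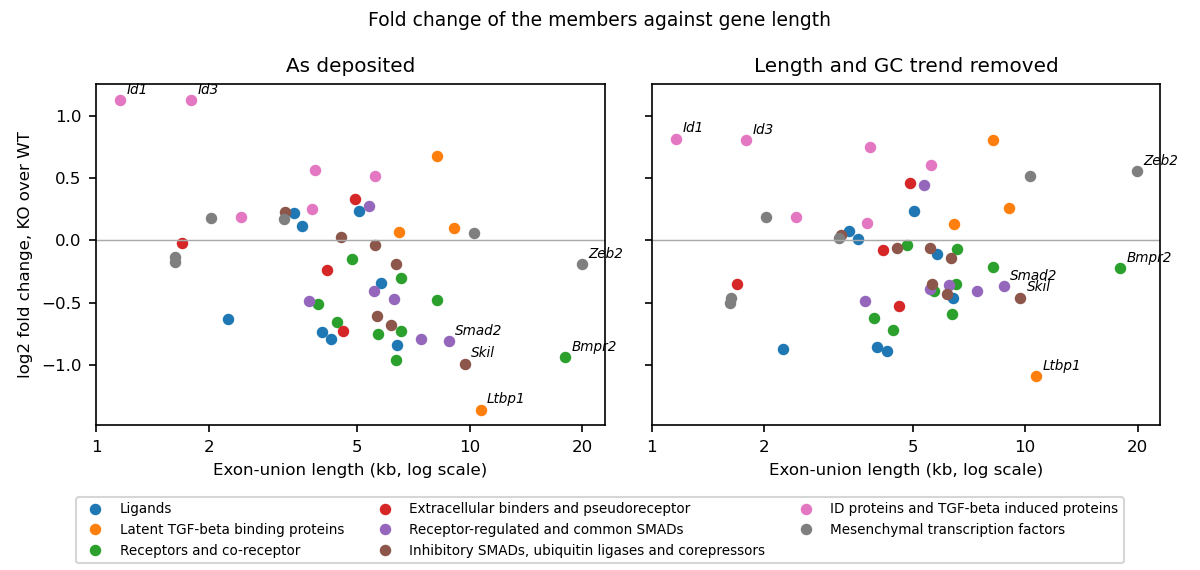
Log2 fold change (y axis, KO over WT) of the 50 members against exon-union length (x axis, kb, log scale), as deposited (left) and after correction for length and GC content (right), coloured by role. The downward slope on the left (Spearman rho -0.45) is nearly flat on the right (-0.04), where Ltbp1 still lies lowest and Id1 and Id3 near the top.

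Further genes of the pathway, 39 measured of 47 listed, were lower in 27 cases and higher in 12, with a median log2 fold change of -0.34. None passed the adjusted threshold (0 genes by limma and 0 by limma-voom) and 13 had an unadjusted p below 0.05 in each (33.3%, against 19.2% of all genes). The 8 without overlap were all lower in KO (20.5%, against 6.86% of all genes). After correction for length and GC content 11 had no overlap (28.2%, against 12.1% of all genes). Of these 7 were lower, where 6.5% of all genes were lower without overlap, and 4 were higher. Itgb6, a subunit of the integrin that frees TGF-beta from its latent complex in epithelium, was at 7.39, 12.0, 9.72 and 9.11 FPKM in KO 1 to 4, against 16.2, 29.1, 27.8 and 48.4 FPKM in WT 1 to 4 (log2 fold change -1.49, SE 0.30, limma adjusted p = 0.0996). Its partner subunit Itgav was at 45.8, 37.0, 17.4 and 23.9 FPKM in KO 1 to 4, against 65.6, 69.0, 57.7 and 66.1 FPKM in WT 1 to 4 (log2 fold change -1.12, SE 0.28, limma adjusted p = 0.133). KO and WT libraries did not overlap for either subunit. Eng (endoglin), a co-receptor best known in endothelium, was at 1.68 ± 0.713 FPKM in KO and 4.54 ± 0.774 FPKM in WT (SD, n = 4 each), and Usp9x, a deubiquitinase of SMAD4, at 12.4 ± 6.83 FPKM in KO and 27.5 ± 4.29 FPKM in WT (SD, n = 4 each). Endothelial markers (4 of 12 measured, Eng among them, none at 0) summed to 1.97 to 3.83 FPKM in KO and 5.62 to 8.36 FPKM in WT. Eng itself was a large part of that sum, at 0.94 to 2.57 FPKM in KO and 3.59 to 5.48 FPKM in WT. The sum is thus not independent of Eng, and the part of endothelial cells in its value was not tested. Corrected for length and GC content, the list median was -0.10, with Itgb6 at -1.12 and Itgav at -0.59. In that form the KO and WT libraries overlapped for Itgb6 and still did not for Itgav.

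TGF-beta target genes, 31 measured of 33 listed, were higher in 11 cases (35.5%, against 44.5% of all genes) and lower in 20 (median -0.31). At an unadjusted p below 0.05 there were 7 (22.6%, against 19.2% of all genes), and 0 passed the adjusted threshold by limma or limma-voom. Tgm2, tissue transglutaminase, was at 101, 135, 112 and 125 FPKM in KO 1 to 4, against 60.3, 49.2, 46.9 and 74.4 FPKM in WT 1 to 4 (log2 fold change 1.03, SE 0.20, limma adjusted p = 0.0996). Adam12, a metalloprotease, was at 10.4, 14.3, 15.9 and 12.2 FPKM in KO 1 to 4, against 45.5, 52.2, 47.1 and 19.0 FPKM in WT 1 to 4 (log2 fold change -1.48, SE 0.31, limma adjusted p = 0.0996). Il11, a cytokine of the interleukin-6 family, was at 5.96 ± 2.04 FPKM in KO and 13.9 ± 3.85 FPKM in WT (SD, n = 4 each), and Klf10, an immediate response factor of TGF-beta, at 11.1 ± 1.72 FPKM in KO and 17.8 ± 1.06 FPKM in WT (SD, n = 4 each). The groups did not overlap for any of these 4 genes, Tgm2 being higher and the other 3 lower in KO. In the whole list 5 genes had no overlap (16.1%, against 11.6% of all genes). After correction for length and GC content there were 3 (9.68%, against 12.1% of all genes). BMP targets outside the members, 8 measured of 12, were higher in 5 cases (62.5%, against 44.5% of all genes) and lower in 3 (median 0.13). Atoh8 was at 3.58 ± 1.36 FPKM in KO and 1.58 ± 0.837 FPKM in WT (SD, n = 4 each) and Msx2 at 11.5 ± 5.11 FPKM in KO and 5.89 ± 3.77 FPKM in WT (SD, n = 4 each), with log2 fold changes of 0.85 and 1.02 and limma adjusted p-values of 0.217 and 0.315.

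Genes of the epithelial state, 22 measured of 24 listed, were lower in 18 cases (median -0.57) and higher in 4 (18.2%, against 44.5% of all genes). At an unadjusted p below 0.05 there were 7 (31.8%, against 19.2% of all genes), and also 7 by limma-voom. None passed the adjusted threshold (0 genes by limma and by limma-voom). The tight junction scaffold Tjp1 was at 17.1 ± 6.17 FPKM in KO and 42.4 ± 3.06 FPKM in WT (SD, n = 4 each) and the desmosome protein Dsp at 8.75 ± 3.25 FPKM in KO and 22.2 ± 4.15 FPKM in WT (SD, n = 4 each), with no overlap for either. Mesenchymal genes, 14 measured of 16 listed, were higher in 7 cases and lower in 7 (median 0.00). At an unadjusted p below 0.05 there were 3 (21.4%, against 19.2% of all genes), or 4 by limma-voom, and 0 passed the adjusted threshold by either. Lgals1 (galectin-1) was at 665 ± 159 FPKM in KO and 227 ± 104 FPKM in WT (SD, n = 4 each) and Vim (vimentin) at 321 ± 172 FPKM in KO and 140.0 ± 80.6 FPKM in WT (SD, n = 4 each), with log2 fold changes of 1.65 and 1.19 and limma adjusted p-values of 0.123 and 0.228. Both genes are also expressed by macrophages and fibroblasts, whose marker sums are given above. In the male libraries alone the epithelial median was 0.18, the opposite sign to that over all 8 libraries. Without KO 3 and KO 4 the epithelial median was -1.45, and 18 of the 22 genes had an unadjusted p below 0.05, against 16.2% of all genes. Corrected for length and GC content, 21 epithelial genes were lower and 1 higher (median -0.75). Of the mesenchymal genes 11 were then higher and 3 lower (median 0.34). At an unadjusted p below 0.05 were 45.5% and 21.4% of the lists, against 20.3% of all genes. In that form 0 genes of either list passed the adjusted threshold.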

How the data were processed

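RNA was taken up in TRIzol, per the labels' protocols. FastQC, STAR 2.4.1d, DESeq2 and build GRCm38 are listed in the submitters' processing notes, while the counter, annotation, strand setting and filter are not stated there. For 14145 genes the authors deposited a value in each library. The file is named for counts, but its values carry decimals and were read as the authors' FPKM: multiplied by exon-union length (GENCODE M21, 14134 genes) they fall on whole reads, within 0.05 read for 95.0% to 95.5% of genes with 1 to 200 reads (8.9% to 11.6% with a wrong step). Beside these values the authors deposited their own log2 fold change of KO over WT, p-value and adjusted p-value per gene. No library column was left without a sample (0 columns).

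log2(FPKM + 1) was tested with limma 3.58.1 in R 4.3.3 (variance trend, all genes, 8 libraries, genotype as the term, Benjamini-Hochberg adjustment at 0.05) and tested on simulated data. No column held raw read counts, so limma was the test. Alternatives were a pseudocount of 0.1, a minimum of 1 FPKM in 4 or more libraries, no variance trend, a replicate block, a sex covariate, median-ratio scaling, limma-voom on recovered reads, correction of each library for length and GC content (lowess span 0.3), the male libraries alone and leaving out each library. Chosen after seeing the data were leaving out KO 3 and KO 4 together and the male libraries with that correction. Members and lists were chosen with earlier results of these data known. Given in full were, in each of 8 roles, members whose groups do not overlap and up to 4 of lowest p; of other lists up to 4 of lowest p; other genes named were chosen after their values were seen. Tables used Python 3.11.15, pandas 2.3.3, numpy 2.4.6 and matplotlib 3.10.9. Recovered reads are not unique molecules, so depth speaks for counting error alone.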

Additional observations from a re-analysis of the deposited data

Results flagged for a closer look

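In 4 of 100 groups of 4 library values (50 members in KO and in WT) 1 library lay far from the other 3 by Dixon's criterion, and chance alone marks about 1 group in 20. Acvr2b was at 1.45 FPKM in KO 2, against 0.51 to 0.65 FPKM in the other KO libraries. Smad6 was at 14.67 FPKM in KO 1, against 10.76 to 11.16 FPKM in the others. WT 4 stood apart for both remaining genes: Smad7 was at 14.49 FPKM there, against 27.28 to 29.25 FPKM in WT 1 to 3, and Id2 at 75.22 FPKM, against 23.85 to 28.95 FPKM.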

How the results depend on the processing

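The count of 0 members past the threshold was the same under all alternatives but 4: 14 with a sex covariate, 15 in the male libraries alone, 11 in the male libraries corrected for length and GC content, and 3 without KO 2 (Ltbp1, Smad2 and Smad5). The sex covariate and the male libraries alone share their fold changes, since both female libraries were KO. Leaving out 1 library gave 0 to 3 members. The count over all genes, 11, was 3 with a pseudocount of 0.1, 7 by limma-voom on recovered reads, 2 after correction for length and GC content, 4838 with a sex covariate, 6275 in the male libraries and 3233 there after the correction. It was 1 without KO 1, KO 4, WT 1, WT 2 or WT 3, 3 without KO 3, 8 without WT 4 and 1139 without KO 2. Of 32 named members Smad6 alone changed sign as a called value, to -0.42 in the corrected male libraries (limma adjusted p = 0.0241). With a replicate block 1 gene and 0 members passed; the numbers did not pair the samples, same-numbered libraries having correlations of 0.04, -0.20, 0.56 and -0.06. The causes were not tested. Few reads limit Twist2, Snai1 and Smad9, with as few as 6, 9 and 14 reads in a library.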
